A study of Brassica napus with 10 samples.

Results

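The genes described here gave no read in cultured pollen and were read in every library of embryogenic structures of the rapeseed *Brassica napus*. They were chosen by their measured values: a gene had to have 0 counts in all 3 pollen libraries and a level of at least 1 CPM (counts scaled to a library total of 1000000) in all 7 libraries of sorted embryogenic structures. This left 204 genes of the 59458 in the count table, and 30714 further genes met the level condition but had at least 1 pollen count. The absence from pollen and the presence in embryogenic structures were therefore set by the choice, and the difference from pollen is given below only as a description, without a test.

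Microspores are the immature pollen grains of the anther, and they can be diverted in culture from pollen development to embryo development, usually by a heat stress. Trichostatin A (TSA) inhibits histone deacetylases, enzymes that remove acetyl groups from histones, and it adds to the effect of heat in this system. LEC1 is a subunit of a transcription factor complex that acts in embryo identity, and a LEC1-GFP reporter is used to mark embryogenic structures. *B. napus* is an allotetraploid whose A and C subgenomes come from different parent species, so that many genes have a close copy in the other subgenome.

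RNA was sequenced from 10 libraries of 3-day-old cultures of 1 genotype, the pLEC1:LEC1-GFP reporter in the DH12075 background. The 3 HS + TSA high libraries came from microspores given 24 h of heat stress (HS) at 33 °C with 0.5 µM TSA and then kept at 25 °C, and the 4 HS + TSA low libraries from the same regime with 0.05 µM TSA; both were sorted for GFP fluorescence. The 3 pollen libraries were not sorted and were cultured at 18 °C with DMSO, the solvent of TSA. Each library was made from 150000 cells pooled over a column, and the labels call the libraries biological replicates. Cell type, heat, TSA, temperature and sorting all changed between pollen and the other groups and cannot be told apart, and no HS culture without TSA was analysed here. The sorted structures are those in which the LEC1 promoter drove GFP and are a mixture of embryogenic forms. In such bulk libraries, fewer cells of a kind and less RNA per cell cannot be told apart.

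Library totals were 58468526 to 67884748 counts in HS + TSA high, 51838498 to 61458274 in HS + TSA low and 93367646 to 109105528 in pollen, so the pollen libraries were the deepest. Over all genes tested, HS + TSA low libraries 1 and 4 were the most alike of any pair in their group (r = 0.976 across genes, on log2 CPM), against 0.880 to 0.887 for either of them with libraries 2 and 3. Apart from the study's list of endoplasmic reticulum stress genes, the sources used here do not pair the gene IDs with gene names or functions, so that the label "silent in pollen, on in embryogenic structures" could be checked only on the counts, the embryo and pollen identity of the libraries could not be checked on marker genes, and the genes are given by ID. None of the 52 gene IDs read from that list was among the 204. The list appears to hold more genes than these 52, and the others were not checked. Positions are on the Darmor-bzh version 10 genome as in the deposited table. No sequence is printed, as no genome of this build was used here.

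In embryogenic structures, the mean level of the 204 genes over the 7 libraries ranged from 1.79 to 208 CPM, with a median of 9.32 CPM and quartiles of 4.99 and 19.3 CPM. The level was at least 10 CPM for 98 genes (48.0%), at least 50 CPM for 20 and at least 100 CPM for 7. The lowest count of any of them in a single HS + TSA library was 52, a value that the limit of 1 CPM sets. The genes with pollen counts had a higher median, 14.7 CPM, and 63.7% of them reached 10 CPM. Per kilobase of exon, however, the medians were close, at 9.52 CPM per kb for the 204 genes and 9.61 CPM per kb for the genes with pollen counts.

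In pollen, 0 counts over the 3 libraries allow a level of up to 0.00999 CPM if every count is independent. This was taken as 3 counts of the 300258239 counts of the 3 libraries together. Against that floor, the mean HS + TSA level was 179-fold higher for the gene with the lowest level and 933-fold higher for the median gene. Counts are not fully independent, since PCR copies reads and both mates of a read pair appear to be counted. The floor is therefore too low and these folds are too high, by an amount that was not measured. The 204 genes are a small part of those without pollen counts. Of 10062 such genes, 5564 had no count in any library and 4498 had a count in an HS + TSA library. The number of libraries in which they reached 1 CPM was 0 for 9047 genes, 1 for 262, 2 for 173, 3 for 142, 4 for 86, 5 for 83 and 6 for 65, and it was 7 for the 204, more than for any number from 2 to 6. HS + TSA high library 1 alone kept out 32 of the 65 genes that missed by 1 library, and each other library kept out 2 to 10.

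The edge of the choice fell among similar genes. The lowest accepted level was that of A09p43240.1_BnaDAR (chromosome A09, 40500455 to 40507519), with 12.1, 8.91 and 10.0 CPM in HS + TSA high libraries 1 to 3, against 1.00, 1.30, 1.19 and 1.02 CPM in HS + TSA low libraries 1 to 4. It was well above the limit at the high dose and just above it at the low dose. The next lowest was A05p06210.1_BnaDAR (chromosome A05), at 1.03 CPM in HS + TSA high library 2 and 1.92 to 3.94 CPM in the 6 others. Just outside the limit were A10p12960.1_BnaDAR, at 0.997 CPM in HS + TSA low library 4, and C08p51130.1_BnaDAR, at 0.972 CPM in HS + TSA high library 1.

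On the pollen side, 4 genes that were on in all 7 libraries had 1 pollen count in total, 66 had 2, 2 had 3 and 48 had 4. Even totals prevailed, and even values also made up 65.8 to 75.2% of the gene counts above 0 in each library, as happens where both mates of a read pair are counted. One of the 4 genes with a single pollen count, A09p59410.1_BnaDAR (chromosome A09), had 250, 211 and 171 CPM in HS + TSA high, against 70.0, 55.1, 43.0 and 75.9 CPM in HS + TSA low, a level that only a few of the 204 genes reached. Another, A03p26940.1_BnaDAR (chromosome A03), had 5.01 to 11.1 CPM in HS + TSA high and 6.71 to 6.94 CPM in HS + TSA low. Both were left out by 1 read, so the choice separates genes with and without any pollen read rather than genes with different levels. When 1 pollen library was left out of the choice, 326 genes remained without library 1, 299 without library 2 and 266 without library 3.

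**Figure D1:**
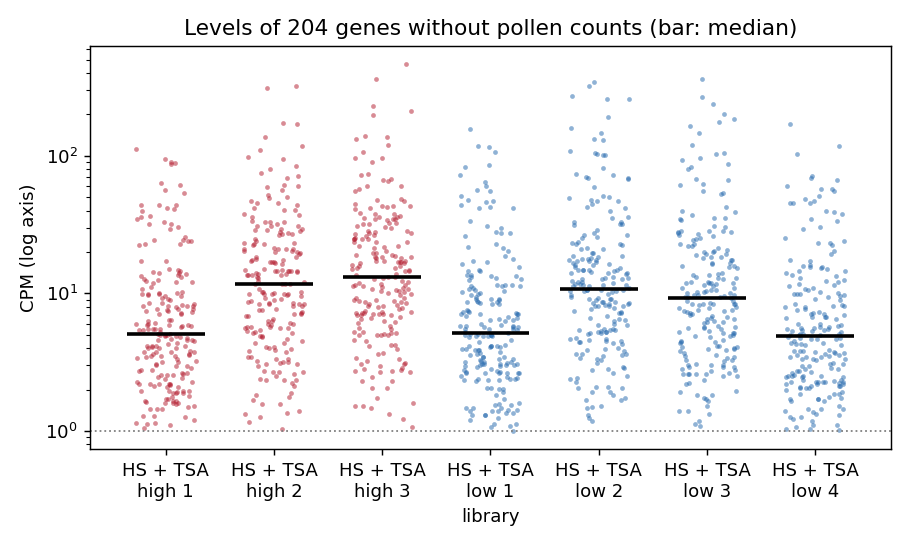
Level of each of the 204 genes in CPM (log axis) in the 3 HS + TSA high and the 4 HS + TSA low libraries; each point is a gene, the bar is the median of the library, and the dotted line is the limit of 1 CPM. The medians lie at 5.05, 11.7 and 13.1 CPM in HS + TSA high libraries 1 to 3 and at 5.2, 10.8, 9.28 and 4.89 CPM in HS + TSA low libraries 1 to 4. The pollen libraries are not drawn, since all values there were 0.

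A few abundant genes carried much of the reads. The 5 with the highest mean level held 20.9% of the summed level of the 204 genes, and the 10 highest held 32.4%. The highest was C09p02070.1_BnaDAR (chromosome C09, 1326546 to 1327796, 3 exons), with 43.8, 322 and 363 CPM in HS + TSA high, against 116, 258, 238 and 118 CPM in HS + TSA low. The doses overlapped, with the lowest value and the 2 highest values all at the high dose. A08p22360.1_BnaDAR (chromosome A08, 19385863 to 19388629, 4 exons) had 36.3, 94.2 and 197 CPM in HS + TSA high, against 158, 319, 359 and 171 CPM in HS + TSA low. Here the high dose held the 2 lowest values, and only library 3 overlapped with the low dose.

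C08p24300.1_BnaDAR (chromosome C08, 24602121 to 24605136) was a short gene, with 377 bases of exon in 5 exons, and it had the highest level per length of the 204 genes, 446 CPM per kb. Its values were 53.7, 173 and 210 CPM in HS + TSA high, against 86.1, 342, 268 and 45.6 CPM in HS + TSA low. C05p55410.1_BnaDAR (chromosome C05, 51291353 to 51293204, 2 exons) had 86.6, 310 and 462 CPM in HS + TSA high, against 13.5, 103, 87.5 and 14.6 CPM in HS + TSA low. Its highest value, in HS + TSA high library 3, was the highest single value of any of the 204 genes. A03p68860.1_BnaDAR (chromosome A03, 39093027 to 39094514, 3 exons) had 35.9, 136 and 140 CPM in HS + TSA high, against 72.8, 257, 165 and 67.0 CPM in HS + TSA low. In all 5 genes, library 1 was the lowest of HS + TSA high, and libraries 1 and 4 were the lowest of HS + TSA low.

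**Figure D2:**
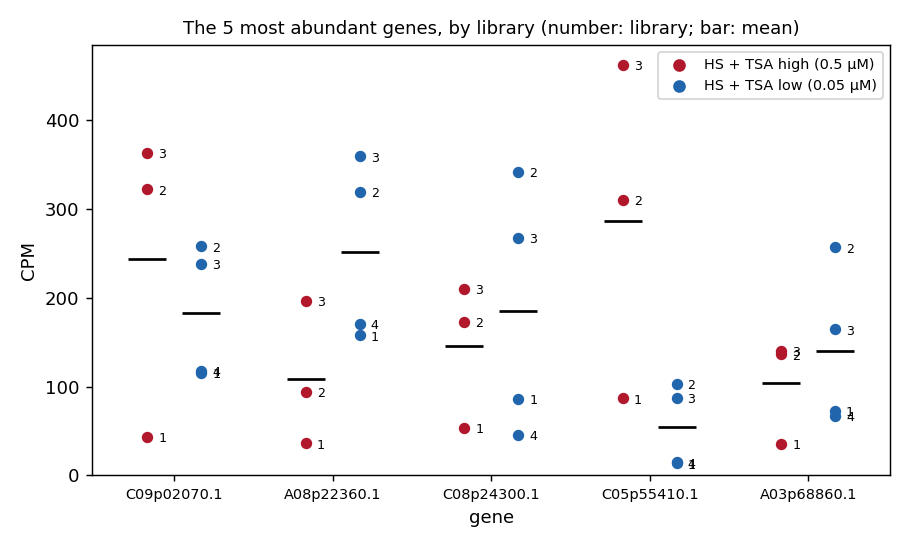
CPM (linear axis from 0) of the 5 genes with the highest mean level, each HS + TSA high library on the left and each HS + TSA low library on the right of its gene, with the library number beside the point and the group mean as a bar. In each gene, library 1 is the lowest point of HS + TSA high and libraries 1 and 4 are the lowest points of HS + TSA low.

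That order of the libraries was shared by most of the 204 genes. Their levels added up to 2351, 4716 and 5715 CPM in HS + TSA high libraries 1 to 3, against 2611, 5588, 4907 and 2445 CPM in HS + TSA low libraries 1 to 4, or 0.235 to 0.571% of a library's counts. The group means were 4261 ± 1727 CPM (SD, n = 3) in HS + TSA high and 3888 ± 1596 CPM (SD, n = 4) in HS + TSA low, a difference well within the spread of either group. The median level of the 204 genes lay between 4.89 and 13.1 CPM in the 7 libraries. That of the genes with pollen counts lay between 13.1 and 15.1 CPM. The latter genes held 967471 to 980925 CPM of each library, so the scaling to a fixed total limits how far their median can move.

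Gene by gene, HS + TSA high library 1 was the lowest of its 3 libraries in 150 of the 204 genes (73.5%, against 33.8% of the genes with pollen counts) and the highest in 28 (13.7%, against 47.4%). HS + TSA low libraries 1 and 4 were both below libraries 2 and 3 in 135 genes (66.2%, against 22.1%) and both above them in 25 (12.3%, against 37.1%). Over all 7 libraries, the highest value was in HS + TSA high library 3 for 72 genes and in HS + TSA low library 2 for 46, and the lowest value was in HS + TSA high library 1 for 74 and in HS + TSA low library 4 for 57. The genes thus moved together between libraries of the same treatment.

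The spread between libraries of a group was accordingly wide. The median SD of the log2 CPM was 0.82 in HS + TSA high and 0.61 in HS + TSA low for the 204 genes, against 0.35 and 0.29 for the genes with pollen counts. The ratio of the highest to the lowest of the 7 libraries had a median of 5.35 (range 1.5 to 88.8), against 2.20, and was 10 or more in 49 of the 204 genes (24%, against 1.83%). It was below 2 in 11 genes (5.39%, against 39.6%). The wider spread was also found among genes with a mean of at least 10 CPM, 98 of the 204 and 19577 genes with pollen counts. Within groups, the median SD was 0.99 in HS + TSA high and 0.69 in HS + TSA low for the 98, against 0.29 and 0.25. The median ratio, which spans both doses and so includes any dose difference, was 7.63 against 1.98.

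Most of the spread lay between particular libraries. The median absolute log2 ratio of the 204 genes was 0.23 between HS + TSA low libraries 1 and 4 and 0.40 between libraries 2 and 3, and it was 0.80 to 1.10 between a library of the first pair and one of the second. In HS + TSA high it was 0.37 between libraries 2 and 3, and 1.08 and 1.47 between library 1 and these. The genes with pollen counts gave 0.16 and 0.29 for those HS + TSA low pairs, 0.35 to 0.38 between them, and 0.26, 0.44 and 0.50 for the HS + TSA high pairs in the same order.

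Likeness to pollen moved with this order in part. Across all genes tested, the correlation of a library with the pollen libraries on log2 CPM was 0.679 to 0.694 for HS + TSA high library 1 and 0.614 to 0.667 for libraries 2 and 3, and it was 0.755 to 0.769 for HS + TSA low libraries 1 and 4 and 0.701 to 0.744 for libraries 2 and 3. The 100 genes with the highest level in pollen held 4.78, 5.00 and 4.62% of the counts in HS + TSA high libraries 1 to 3 and 5.23, 4.91, 5.15 and 5.42% in HS + TSA low libraries 1 to 4, against 7.71 to 9.16% in pollen. Within each dose, then, the libraries in which the 204 genes were low correlated more with pollen, whereas the share of the pollen-abundant genes followed this only in HS + TSA low. The part of other cells, or of a different mix of embryogenic structures, in these levels was not tested.

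The 2 extremes of spread were both single genes of chromosome C01. C01p27770.1_BnaDAR (19070486 to 19074905, 7 exons) was the steadiest of the 204, with 1.59, 1.68 and 2.33 CPM in HS + TSA high, against 2.01, 2.44, 1.95 and 2.22 CPM in HS + TSA low (coefficient of variation 0.158 over the 7 libraries). C01p23280.1_BnaDAR (15325280 to 15325935, 1 exon) was the most variable, with a coefficient of variation of 1.46, against a median of 0.569 for the 204 genes. It had 2.09, 2.7 and 3.36 CPM in HS + TSA high, against 17.3, 147, 186 and 15.7 CPM in HS + TSA low. Its values were uniformly low at the high dose and were split at the low dose into the same library pairs as above.

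The 2 TSA doses were compared with edgeR's quasi-likelihood test, fitted to all genes with all 10 libraries, and a gene was called where its p, adjusted over 45264 genes by the method of Benjamini and Hochberg, did not exceed 0.05. The dose comparison was not used to choose the genes, although each of them had to reach 1 CPM at both doses. Of the 204 genes, 21 were higher in HS + TSA high (10.3%), where 4.94% of all genes tested were called, and 7 were lower (3.43%), where 5.46% were called. The other 176 were not called, and 61 of the 204 had an unadjusted p under 0.05 (29.9%, against 27.7% of the genes tested). The median log2 fold change of the 204 genes was 0.33 (quartiles -0.36 and 1.06), against 0.02 for all genes tested, and it was above 0 for 124 genes (60.8%, against 51.4%). All HS + TSA high libraries lay above all HS + TSA low libraries in 33 genes (16.2%, against 12.1% of the genes tested) and below them in 20 (9.80%, against 11.7%).

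These counts depended on single libraries. Without HS + TSA high library 1, the library in which the 204 genes were lowest, 38 were called higher (where 6.87% of all genes tested were called) and 8 lower (7.06%), and the median log2 fold change was 0.55. The median was 0.10 without HS + TSA high library 3, 0.13 without HS + TSA low library 4 and 0.21 without HS + TSA low library 1, so that single libraries moved it both ways. Without HS + TSA low library 1, HS + TSA high library 2 or HS + TSA high library 3, 9 were called higher in each case, where 2.02, 2.22 and 2.4% of all genes tested were called, and 5, 4 and 6 were called lower, where 2.54, 2.91 and 2.79% were called. Leaving out HS + TSA low libraries 1 and 4 together gave 8 higher (1.37% of all genes tested) and 6 lower (2.88%), with a median of -0.09. Of the 28 genes called, 12 (8 higher and 4 lower) were called in each of the 10 fits that left out 1 library. The share kept among all genes called was not computed. When the replicate number entered the fit as a block, 16 of the 204 were called higher, where 2.58% of all genes tested were called, and 10 lower, where 3.68% were called. The share called lower (4.90%) was then above that over all genes, whereas without the block it was below it. Only HS + TSA low has a library 4, so the fit with the block in effect also left that library out of the dose comparison.

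**Figure D3:**
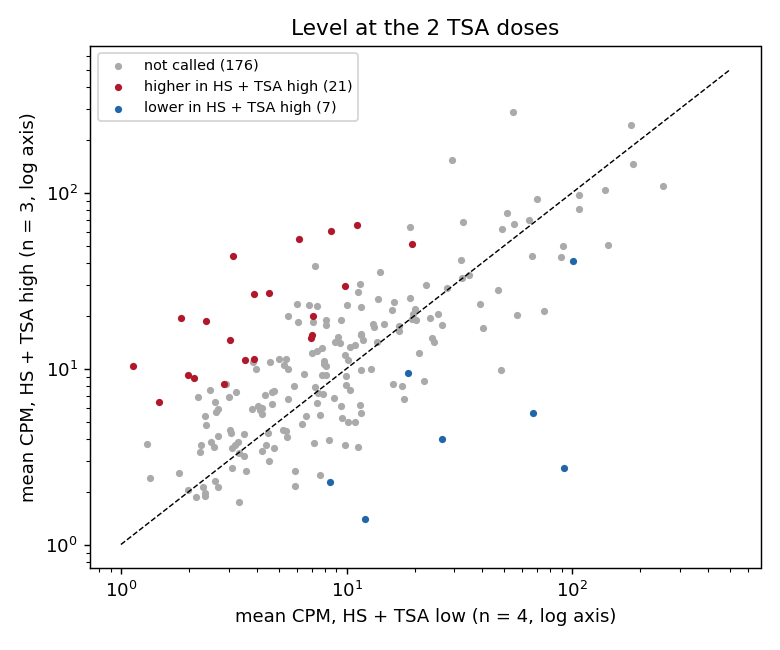
Mean CPM of each of the 204 genes in HS + TSA high (n = 3, vertical log axis) against HS + TSA low (n = 4, horizontal log axis); the dashed line marks equal levels. The 21 genes called higher in HS + TSA high lie above the line, the 7 called lower lie below it, and the 176 others scatter along it.

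The genes called higher were mostly weak at the low dose. Their median level was 18.7 CPM in HS + TSA high and 3.90 CPM in HS + TSA low, and their log2 fold changes were 1.10 to 3.77 with a median of 2.20. The 7 genes called lower had a median of 3.99 CPM in HS + TSA high and 26.5 CPM in HS + TSA low, with log2 fold changes of -5.11 to -0.98 and a median of -2.71. The libraries of the doses did not overlap in 20 of the 21 genes and in all 7. The call and this separation use the same values, so the separation adds no support to the calls. Its share among all genes called was not computed. The called genes lay on many chromosomes, the 21 on 12 and the 7 on 6.

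The largest increase was in A07p00690.1_BnaDAR (chromosome A07, 496513 to 497137, 1 exon). It had 62.9, 32.9 and 34.6 CPM in HS + TSA high, against 2.39, 5.14, 3.30 and 1.70 CPM in HS + TSA low. Its highest value was in HS + TSA high library 1, so it did not follow the common order of the libraries. The log2 fold change was 3.77 ± 0.40 (SE), with an adjusted p of 0.0019 by edgeR's quasi-likelihood test. The next was A06p13690.1_BnaDAR (chromosome A06, 7483943 to 7486137, 1 exon), with 9.52, 23.3 and 25.3 CPM in HS + TSA high, against 1.47, 1.74, 1.82 and 2.35 CPM in HS + TSA low. In this gene library 1 was the lowest of the high dose but still above every library of the low dose, and the log2 fold change was 3.41 ± 0.39 (SE, edgeR adjusted p = 0.0022). Both genes were called in every alternative run.

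The largest decrease was in C01p23280.1_BnaDAR, the most variable gene given above. Its log2 fold change was -5.11 ± 1.17 (SE), and its adjusted p of 0.0398 by edgeR was close to the limit. The call was lost in 10 of 24 alternatives, among them every fit without 1 of the HS + TSA high libraries, while the log2 fold change in those 10 stayed between -5.32 and -4.33. The next was A03p47000.1_BnaDAR (chromosome A03, 22008492 to 22008981, 1 exon), with 2.12, 6.02 and 8.61 CPM in HS + TSA high, against 106, 49.2, 53.5 and 60.2 CPM in HS + TSA low. Its lowest value at the low dose was more than 5 times its highest value at the high dose, and the log2 fold change was -3.56 ± 0.53 (SE, edgeR adjusted p = 0.0080). With the replicate block, its fold change was -3.71 and the adjusted p was 0.068, over a range of 9.4e-13 to 0.068 in the 24 alternatives.

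None of the 5 most abundant genes was called between the doses. The fold change was largest for C05p55410.1_BnaDAR, at 2.38 ± 0.93 on the log2 scale (SE, edgeR adjusted p = 0.156). With the block it was 2.20 and the adjusted p was 0.010, over a range of 0.010 to 0.386 in the alternatives. A08p22360.1_BnaDAR had a log2 fold change of -1.20 ± 0.63 (SE, edgeR adjusted p = 0.268), and the block gave -1.60 with an adjusted p of 0.024, over a range of 0.024 to 0.468. For C09p02070.1_BnaDAR, C08p24300.1_BnaDAR and A03p68860.1_BnaDAR the log2 fold changes were 0.42 ± 0.71, -0.36 ± 0.80 and -0.43 ± 0.66 (SE), and their direction turned in 1 to 4 of the 24 alternatives. With the block they were -0.15, -0.69 and -0.74 (edgeR adjusted p = 0.874, 0.054 and 0.068), over ranges of the adjusted p of 0.169 to 0.994, 0.054 to 0.980 and 0.068 to 0.996 in the alternatives. C08p24300.1_BnaDAR and A03p68860.1_BnaDAR were lower in HS + TSA high in each of the 3 same-numbered pairs.

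In structure, the 204 genes were short and had few exons. The exon length had a median of 1065 bases (range 270 to 5075), against 1484.5 bases for the genes with pollen counts and 1246 bases for all genes in the table. The median number of exons was 3, against 6 and 4. A single exon was annotated for 51 genes (25%, against 11.8% and 19.4%), and at most 3 exons for 127 (62.3%, against 31.6% of the genes with pollen counts). Genes with 10 or more exons were few, 12 of 204 (5.88%, against 25.7%). The gap to the genes with pollen counts was thus larger than the gap to all genes. The choice used counts that were not scaled for length, and its part in these differences was not tested. The 51 single-exon genes had a median dose log2 fold change of -0.10, and the 153 genes with 2 or more exons one of 0.39; this difference was not tested. Reads were counted without strand in this kit, so an overlapping or antisense gene could share reads. Only 4 of the 204 genes overlapped another gene in the table, and the 200 that did not had a median exon length of 1079 bases.

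**Figure D4:**
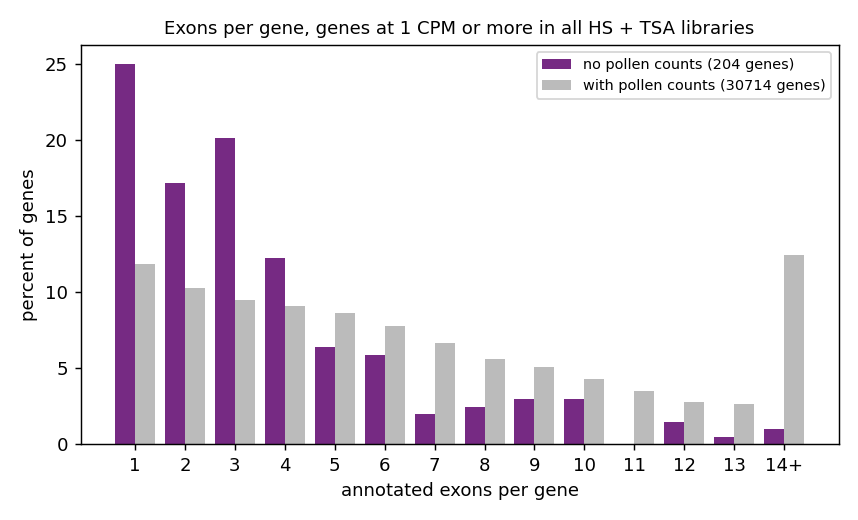
Percent of genes (vertical axis from 0) by the number of annotated exons (horizontal axis, the last bar for 14 or more), for the 204 genes without pollen counts and the 30714 genes with pollen counts, all at 1 CPM or more in the 7 HS + TSA libraries. Single-exon genes make up 25% of the 204 genes and 11.8% of the others.

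The 204 genes were found on all 19 chromosomes and were shared evenly between the subgenomes. The A subgenome held 99 (48.5%, against 48.5% of the genes with pollen counts), the C subgenome 104 (51.0%, against 50.5%), and 1 gene was on an unplaced scaffold. Chromosome C03 held the most, 23, followed by A09 with 17 and by C01 and C09 with 13 each, and C02 held the fewest, 4. Relative to the genes on in all 7 libraries, the number was 9.17 per 1000 on C01, 8.79 on A04, 8.37 on C06 and 8.23 on C03, and it was 3.93 on A03 and 3.94 on C02. With 4 to 23 genes on a chromosome, these ratios carry a wide counting error.

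**Figure D5:**
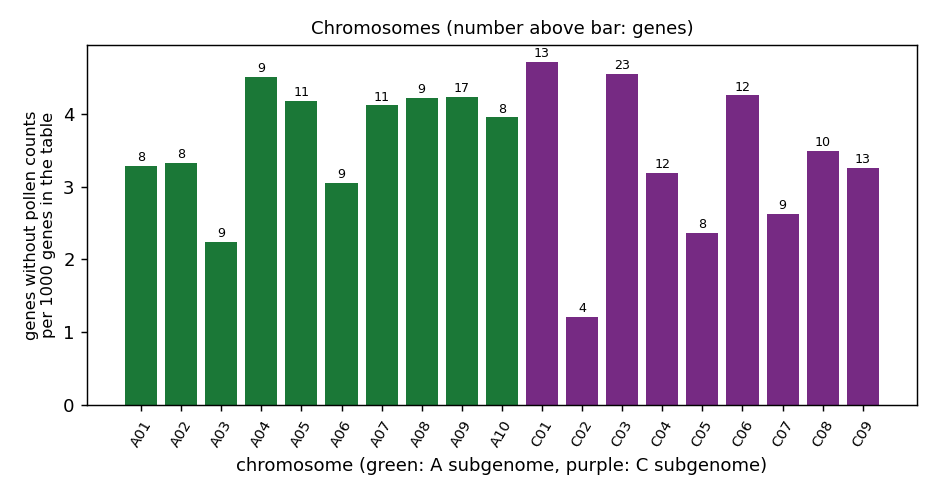
Genes without pollen counts that were on in all 7 HS + TSA libraries, per 1000 genes in the table (vertical axis from 0), for each of the 10 A and 9 C chromosomes; the number above a bar is the number of genes. The bars run from 1.21 on C02 to 4.71 on C01, and both subgenomes have high and low bars.

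The genes were mostly scattered singly. Of the 204, 18 (8.82%) had another within 10 genes on either side, and 3 pairs were direct neighbours in the table. The share for other sets of this size was not computed, so neither scatter nor pairing can be called particular to these genes. In the first pair, C01p37570.1_BnaDAR and C01p37580.1_BnaDAR (chromosome C01, 33162221 to 33163855), the genes lie on the same strand and overlap by 140 bases, so reads of the overlap cannot be assigned to either with certainty. C01p37570.1_BnaDAR had 4.17, 3.20 and 3.98 CPM in HS + TSA high, against 6.71, 10.3, 6.99 and 4.69 CPM in HS + TSA low. C01p37580.1_BnaDAR had 31.8, 9.75 and 11.6 CPM in HS + TSA high, against 27.5, 32.9, 22.1 and 23.1 CPM in HS + TSA low. The overlapping genes therefore differed several-fold in level, and HS + TSA high library 1 was the highest of its group in both. Neither gene was called between the doses (edgeR adjusted p = 0.138 and 0.340), but without HS + TSA high library 1 C01p37580.1_BnaDAR was called lower, with a log2 fold change of -1.28 (edgeR adjusted p = 0.012, over a range of 0.012 to 0.653 in its alternatives).

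The other pairs did not overlap. A03p16610.1_BnaDAR and A03p16620.1_BnaDAR (chromosome A03, 7197230 to 7210601) lie on opposite strands, 10442 bases apart. The first had 1.53, 28.8 and 25 CPM in HS + TSA high, against 3.47, 12.9, 8.42 and 3.55 CPM in HS + TSA low. The second had 2.53, 7.63 and 8.99 CPM in HS + TSA high, against 5.48, 9.34, 9.48 and 5.35 CPM in HS + TSA low. Both were lowest in HS + TSA high library 1. A06p12950.1_BnaDAR and A06p12960.1_BnaDAR (chromosome A06, 7187641 to 7195120) also lie on opposite strands, 2276 bases apart. A06p12950.1_BnaDAR had 4.04, 4.07 and 3.05 CPM in HS + TSA high, against 1.12, 1.5, 1.52 and 1.11 CPM in HS + TSA low. A06p12960.1_BnaDAR had 3.21, 8.11 and 7.07 CPM in HS + TSA high, against 1.93, 7.19, 5.62 and 1.40 CPM in HS + TSA low. The doses were separate in the first of these genes and overlapped in the second, and neither was called (edgeR adjusted p = 0.068 and 0.584). A06p12950.1_BnaDAR was called by limma-voom (adjusted p = 0.026) and DESeq2 (adjusted p = 0.0090), over a range of 0.0090 to 0.277 in its 24 alternatives.

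The genes next to the 204 were largely ordinary genes with pollen counts. Over both sides there were 401 next genes that were not themselves among the 204, taken from the genes in the table used here. Of these, 229 (57.1%) were on in all 7 HS + TSA libraries, against 57.5% of the next genes of genes with pollen counts, and 63 (15.7%) had 0 pollen counts, against 13.7%. The median gap to the next gene in the table was 7703.5 bases for the 204 genes. It was 4015 bases for the genes with pollen counts and 5125.5 bases for all genes. By their numbering, some IDs between such neighbours are missing from the table. Whether further annotated genes lie in these gaps was not checked.

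Of the next genes, 311 could be tested, and their own change from pollen was not used in the choice. In HS + TSA high against pollen, 97 were higher (31.2%, where 27.5% of all genes tested were called) and 57 lower (18.3%, where 18.8% were called), by edgeR at an adjusted p of at most 0.05. In HS + TSA low against pollen, which uses the same pollen libraries, 99 were higher (31.8%, where 26.4% were called) and 52 lower (16.7%, where 17.4% were called). Between the doses, 24 were higher in HS + TSA high (7.72%, where 4.94% of all genes tested were called) and 14 lower (4.50%, where 5.46% were called). The shares that differed most from those over all genes were the higher ones, in all 3 comparisons; these differences were not tested.

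The neighbours of the 5 most abundant genes, taken from the genes in the table, ranged in pollen from well read to near the floor. C09p02070.1_BnaDAR lies between C09p02050.1_BnaDAR, which averaged 68.3 ± 2.07 CPM in HS + TSA high, 43.3 ± 7.0 CPM in HS + TSA low and 74.0 ± 15.4 CPM in pollen (SD), and C09p02100.1_BnaDAR, which averaged 228 ± 12.5, 200.4 ± 10.2 and 348 ± 16.3 CPM in the same order. Both were well read in pollen, 2535 and 17551 bases away. A08p22360.1_BnaDAR lies 1382 bases from A08p22350.1_BnaDAR, which averaged 44.6 ± 5.07 CPM in HS + TSA high, 37.2 ± 2.55 CPM in HS + TSA low and 27.6 ± 4.16 CPM in pollen (SD), and on its other side A08p22380.1_BnaDAR averaged 11.3 ± 1.88, 13.2 ± 2.91 and 15 ± 1.58 CPM.

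C08p24300.1_BnaDAR is 394 bases from C08p24290.1_BnaDAR on the opposite strand, which averaged 5.62 ± 3.04 CPM in HS + TSA high, 4.42 ± 0.746 CPM in HS + TSA low and 1.31 ± 0.597 CPM in pollen (SD). Its other neighbour, C08p24330.1_BnaDAR, was near the floor in pollen, with 12, 4 and 0 counts, and averaged 0.499 ± 0.512 CPM in HS + TSA high and 1.16 ± 0.414 CPM in HS + TSA low. C05p55410.1_BnaDAR lies 13194 bases from C05p55440.1_BnaDAR, which averaged 83.7 ± 3.35 CPM in HS + TSA high, 87.2 ± 10.6 CPM in HS + TSA low and 63.6 ± 7.47 CPM in pollen (SD), and 48309 bases from C05p55370.1_BnaDAR, which averaged 12.3 ± 2.26, 12.3 ± 1.99 and 21.7 ± 1.79 CPM. A03p68860.1_BnaDAR had the widest gaps of the 5 to its next genes in the table. One was 85603 bases, to A03p68830.1_BnaDAR, which averaged 25.6 ± 3.64 CPM in HS + TSA high, 30.6 ± 6.72 CPM in HS + TSA low and 30.0 ± 2.81 CPM in pollen (SD). The other was 92392 bases, to A03p68880.1_BnaDAR, which stayed below 1.3 CPM in every library. All 10 neighbours had counts in at least 2 pollen libraries.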

How the data were processed

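Raw counts for each gene were deposited by the authors, who per their methods made them by aligning paired reads to the Darmor-bzh version 10 genome and counting over exons; the submitters' processing notes name STAR 2.7.10a, Subread 1.5.2 with featureCounts, and DESeq2. They also deposited normalized counts, a signal in which each library is divided by its DESeq2 size factor, used here only as an alternative, and fold changes and p-values of their own comparisons, which were not used. Of 61170 rows, 1712 exact repeats were dropped, and CPM was the count divided by the column sum, times 1000000. Counts were tested with edgeR 4.0.16 (R 4.3.3; filterByExpr with minimum count 10 and minimum total 15, TMM, robust quasi-likelihood test), in a single fit of the 3 groups, and p-values were adjusted over 45264 genes by Benjamini-Hochberg. The SE was taken as the absolute log2 fold change over the root of F. The script was tested on simulated data.

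Deviations from the group means correlated at 0.320, 0.126 and 0.186 between HS + TSA high and HS + TSA low libraries of the same number, all over 0.1, so same-numbered libraries were taken as pairs and the block was fitted as an alternative; the pairing comes from the replicate numbers in the labels and these correlations. Libraries of different numbers gave values in the same range in 3 cases (0.292 for HS + TSA high 1 with HS + TSA low 4, 0.176 for high 2 with low 3, 0.168 for high 3 with low 2), so the pairing by number is weakly supported. The block also tied each pollen library to the HS + TSA libraries of its number. There the correlations were only -0.012 to 0.053, so the block has no such support for pollen. HS + TSA low library 4 was the only library of its number, so with the block it added nothing to the dose comparison.

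The genes, lists and tests were chosen with earlier results of these data known. Genes named are the 5 with the highest mean CPM and their next genes, the 2 called higher and 2 lower with the largest fold change among those whose doses did not overlap, the highest and lowest coefficient of variation, adjacent pairs, and genes at the thresholds. Alternatives were other scalings, filters, tools (limma 3.58.1, DESeq2 1.42.0) and thresholds, the replicate block, counts halved to read pairs, and libraries left out or summed. Python 3.11.15 with numpy 2.4.6, pandas 2.3.3 and matplotlib 3.10.9 was used for the rest. None of the gene IDs matched the gene table of the Da-Ae assembly.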

Additional observations from a re-analysis of the deposited data

Results flagged for a closer look

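In 2 of 33 groups of 4 libraries examined, 1 library stood apart from the rest by Dixon's ratio, the gap to the nearest library divided by the range of the group, at the 95% limit for 4 samples. Chance alone flags about 1 group in 20. Both were neighbours of the abundant genes in HS + TSA low, and in both it was library 2. C05p55370.1_BnaDAR had 9.32 CPM there, against 13.1 to 13.6 CPM in the other HS + TSA low libraries (ratio 0.890). A03p68830.1_BnaDAR had 40.7 CPM there, against 27.0 to 27.7 CPM (ratio 0.952).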

How the results depend on the processing

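The number of genes without pollen counts that were on in all HS + TSA libraries was 204, and it was 130 with a minimum of 2 CPM; leaving out 1 library gave 206 to 326. Of the genes called between the doses, 21 higher and 7 lower, leaving out 1 library gave 9 to 38 higher and 4 to 8 lower. Over all genes tested, these fits called 2.02 to 6.87% higher and 2.54 to 7.06% lower. An adjusted p of at most 0.01 gave 6 higher (2.94%, against 1.08% of all genes) and 4 lower (1.96%, against 1.10%), DESeq2 36 higher (17.6%, against 9.24%) and 13 lower (6.37%, against 8.50%), and limma-voom 11 lower (5.39%, against 4.98%). With HS + TSA low libraries 1 and 4 summed, 11 were higher (5.39%, against 2.60%), and without both of them, an alternative chosen after seeing the data, 8 were higher. The replicate block gave 16 higher (7.84%, against 2.58%) and 10 lower (4.90%, against 3.68%), of which 12 and 4 were called without it, and a median log2 fold change of 0.12; among the genes named, it changed the calls of A03p47000.1_BnaDAR, C05p55410.1_BnaDAR and A08p22360.1_BnaDAR. With the block, HS + TSA low library 4, the only library of its number, added nothing to the dose comparison. The signs of the 28 called genes held in every alternative. Uncalled log2 fold changes that turned sign were those of C09p02070.1_BnaDAR (-0.154 with the block, -0.0272 with limma-voom, -0.0501 without HS + TSA low 1 and 4, -0.0222 to 0.922 with 1 library left out), A06p12960.1_BnaDAR (-0.0940 without HS + TSA low 1 and 4) and, with 1 library left out, C08p24300.1_BnaDAR (-0.751 to 0.116), A03p68860.1_BnaDAR (-0.736 to 0.0381) and A03p16620.1_BnaDAR (-0.578 to 0.179). The cause was not tested. Leaving out the 4 overlapping genes gave a median exon length of 1079 bases and 50.5% on the C subgenome, but so few genes could move these little. With the deposited normalized counts, the median SD on the log2 scale was 0.88 in HS + TSA high and 0.63 in HS + TSA low. The genes with pollen counts then had 0.34 and 0.28. With 3 and 4 libraries per dose, the median SE of the 204 genes was 0.52 on the log2 scale, and the smallest change called among them was 0.98.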
